A study of Drosophila melanogaster with 6 samples.

Results

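The genes described here serve the secretory pathway and the folding of proteins in the endoplasmic reticulum (ER) of Drosophila melanogaster larvae. Their 37 symbols were listed by function, and 32 of the 37 were matched to the deposited count table of 14869 genes through their FlyBase identifiers. Ire1, Pdi, Sec23, Sec24CD and Tango1 carry identifiers in the reference that the table does not list under the same number, and they are not analysed here. Each of the 32 matched genes had at least 360 counts in every library, and each passed the filter on low counts. The matched symbol Srp54 (FBgn0024285) belongs in the fly reference to a splicing factor gene of the SR family. The gene for the subunit of the signal recognition particle is called Srp54k there. Srp54 stays in the counts below, which are also given without it.

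Proteins that are to be secreted or placed in membranes are brought to the ER by the signal recognition particle and its receptor. They pass through the Sec61 channel, are folded by chaperones, lectins and disulfide isomerases, and leave in vesicles with a COPII coat. Misfolded proteins are sent back to the cytosol for degradation, and ER membrane sensors raise the folding capacity when unfolded proteins build up. The larval fat body is a secretory organ that releases storage proteins into the blood, while the brain consists mostly of neurons, their progenitors and glia.

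Polyadenylated RNA was sequenced from male wandering L3 larvae in 3 groups of 2 biological replicates, namely brain without the ventral nerve cord, control fat body, and fat body from larvae whose food held 25 µM 4-hydroxytamoxifen (4-HT). All larvae were raised at 25 °C. Every library, the controls included, pooled 6 transgenic lines in equal parts in a y,w background, from 5 larvae of each line for brain (30 in all) and 3 for fat body (18 in all). The lines carry a Dam DNA methyltransferase gene with the hsp70 promoter at the ZH51C site and an intein that responds to 4-HT, Dam[4-HT-intein@L127C]. In 1 line Dam stands alone, and in the others it is fused to PC, H1, HP1, MRG15 or BRM. None of the 6 libraries comes from larvae without the transgenes, and none from brain with 4-HT. Lines pooled in a library cannot be told apart.

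Each library had between 20687696 and 65802288 counts. The 5 most abundant genes took 47.0% to 51.6% of the counts of a fat body library and 4.20% and 5.52% of those of a brain library. Values per gene are therefore given as CPM, the read count per library size after TMM scaling in the usual CPM unit, and as a level relative to the median of the 10029 genes tested in the same library. Neither is corrected for length, and both serve to compare 1 gene between libraries. The labels were checked against defining markers. The 7 fat body markers found summed to 383 and 521 CPM in brain and to 791449 to 977888 CPM in fat body. TMM scaling multiplied the library sizes by 0.5475 to 0.6146 in fat body and by 2.88 and 3.047 in brain. Such sums are therefore not shares of a library. The neuronal gene elav stood at 204 and 245 CPM in brain and 1.12 to 2.58 CPM in fat body. Fat body control replicate 1 stood apart in 11 salivary gland marker genes, which summed to 2014 CPM there, 2.62 CPM in control replicate 2, 3.16 and 2.99 CPM with 4-HT, and 70.6 and 0.755 CPM in brain. Of 9 neuron and glia markers, Syt1 and Eaat1 were higher in fat body than in brain and moody was at similar levels. The sum of the 9 therefore hardly separated the tissues. It was 1007 and 1205 CPM in brain, 820 and 998 CPM in control fat body, and 1000 and 1003 CPM with 4-HT. Of 6 hemocyte markers the sum was 544 and 590.4 CPM in control fat body, 531 and 444 CPM with 4-HT, and 35.8 and 32.8 CPM in brain, most of it in fat body from srp, a GATA factor gene of blood cells and of the fat body itself. The blood cell gene Hml stood at 48.6 CPM in control replicate 1, 13.2 to 16.1 CPM in the other fat body libraries, and 2.10 and 2.59 CPM in brain. Pxn, of the same list, made up most of the brain sum, at 30.2 and 27.5 CPM. It stood at 55.9 and 10.0 CPM in control fat body and 10.3 and 14.9 CPM with 4-HT. Brain was below both controls for every other marker of that list. The part of either cell type in the results below was not tested.

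The first comparison set brain against control fat body. Secretory pathway genes stood far higher above the median gene in fat body than in brain. The median gene of the group was at 4.85 and 4.57 times the library median in the brain libraries, 21.4 and 20.1 times in control fat body, and 22.9 and 20.7 times with 4-HT. Of the 32 genes, 30 were lower in brain, against 34.5% of all genes tested, and 1 was higher, against 35.5% (edgeR quasi-likelihood test, Benjamini-Hochberg adjusted p under 0.05 over 10029 genes). The gene that was higher was Srp54, and the 1 gene that did not pass was PEK. Without Srp54, 30 of 31 were lower. These directions are those with TMM scaling. With library size as the only scaling 23 of the 32 values were positive, while the median of all genes tested was itself 2.49. There 15 of the 32 were called higher in brain, against 75.5% of all genes tested, as set out below. With TMM the group's median log2 fold change, brain over control fat body, was -1.99 (3.96-fold lower), while the middle of all genes tested lay at 0.11. At an unadjusted p under 0.05 the number was 31, against 72.6% of all genes tested. DESeq2 called 30 lower, against 26.4% of the 13574 genes with any count. The libraries of the tissues did not overlap for 31 genes (86.5% of all genes tested), of which 30 were below both controls in brain (41.4% of all genes tested) and 1 was above both (45.2%). In dissected tissue, fewer cells of a type and less RNA per cell cannot be told apart.

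**Figure D1:**
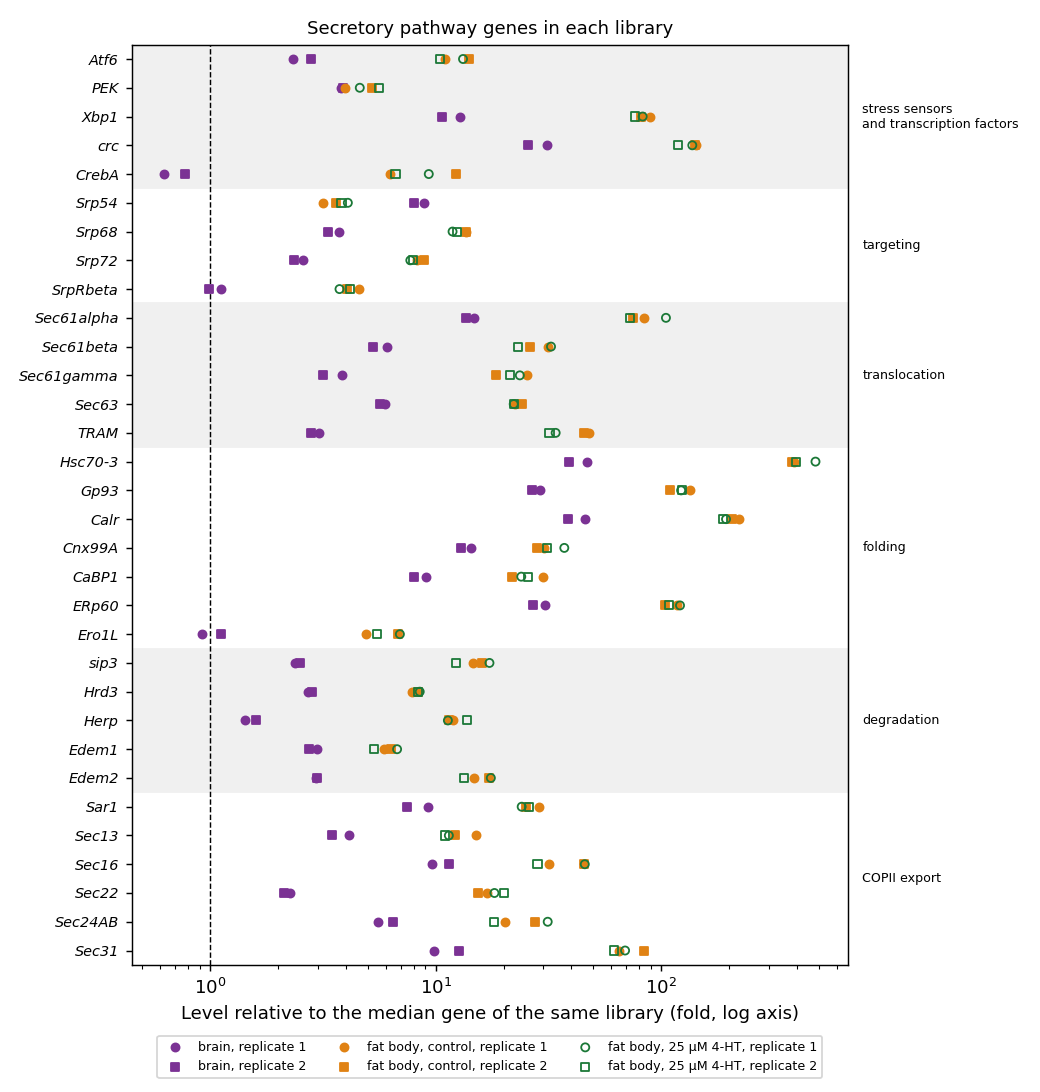
Level of each of the 32 secretory pathway genes in each of the 6 libraries, in multiples of the median gene of the same library on a log axis (dashed line at 1), with genes grouped by role. The brain points lie to the left of all fat body points for 31 genes, narrowly so for PEK (at most 3.87 in brain and at least 3.98 in fat body), and to the right for Srp54.

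All 32 genes together took 0.916% and 0.845% of the unscaled counts of the brain libraries, 0.824% and 0.679% of those of control fat body and 0.777% and 0.791% with 4-HT. As plain shares of a library, both brain values were thus slightly above the 4 fat body values. With the 5 most abundant genes of each library left out of the total, the shares were 0.970% and 0.882% in brain, 1.61% and 1.40% in control fat body and 1.54% and 1.49% with 4-HT, and the order of the tissues turned.

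Among the sensors of unfolded proteins and the transcription factors, 4 of 5 were lower in brain (34.5% of all genes tested). The median log2 fold change of the 5 was -2.10. With library size only, where the median of all genes tested was 2.49, 2 of the 5 values were negative. Xbp1 (FBgn0021872), the transcription factor whose mRNA the sensor Ire1 splices, stood at 124 and 98.7 CPM in brain, 756 and 629 CPM in control fat body and 639 and 649 CPM with 4-HT. Its log2 fold change in brain was -2.64 (SE 0.22, edgeR adjusted p = 7.45e-05), and the brain libraries lay far below the 4 fat body libraries. Atf6 (FBgn0033010), a membrane-bound transcription factor that is cut and released under ER stress, was measured at 22.6 and 25.9 CPM in brain, 94.1 and 108 CPM in control fat body and 102 and 88.9 CPM with 4-HT. It was 4.17-fold lower in brain by the fitted value (log2 fold change -2.06, SE 0.19, edgeR adjusted p = 1.09e-04), again without overlap between the tissues.

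PEK (FBgn0037327), the kinase that slows translation under ER stress by phosphorylating eIF2alpha, was the exception. It stood at 36.7 and 35.9 CPM in brain, 33.9 and 40.5 CPM in control fat body and 35.6 and 47.8 CPM with 4-HT. These values overlapped between the tissues. Its log2 fold change was -0.04 with a 95% interval of -0.50 to 0.43 (edgeR adjusted p = 0.882), an interval that leaves out the group's median of -1.99. Relative to the library median, PEK was at 3.81 and 3.87 times in brain and 3.98 and 5.23 times in control fat body. The transcription factor gene crc (FBgn0000370), the fly ATF4, belongs to the same branch. It stood at 301 and 238 CPM in brain, 1216 and 1091 CPM in control fat body and 1059.7 and 1009.7 CPM with 4-HT. Here the brain libraries were below all fat body libraries (log2 fold change -2.10, SE 0.21, edgeR adjusted p = 1.83e-04). Exons of the gene CG46314 on the same strand cover 73.5% of the exon length of crc in the BDGP6 annotation, so the counts of crc are uncertain.

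CrebA (FBgn0004396), a transcription factor that drives secretory pathway genes in the embryonic salivary gland, had the smallest count of the group in any library. It stood at 6.04 and 7.19 CPM in brain, 53.5 and 95.5 CPM in control fat body and 72.0 and 56.5 CPM with 4-HT. CrebA was below the median gene in both brain libraries, at 0.627 and 0.775 times its level, against 6.28 and 12.3 times in control fat body. Its log2 fold change of -3.49 (SE 0.33, edgeR adjusted p = 1.23e-04) had the largest standard error of the 32, and its control libraries differed from each other by more than its 4-HT libraries did. The control library with the salivary gland transcripts was the lower of the pair in CrebA, and without it the log2 fold change was -3.82. The part of salivary gland cells in the level of CrebA was not tested.

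The 3 genes for proteins that bring nascent chains to the ER were lower in brain (34.5% of all genes tested). With library size only, where the median of all genes tested was 2.49, 0 of the 3 values were negative. Srp68 (FBgn0035947) and Srp72 (FBgn0038810) encode a pair of proteins that bind each other in the signal recognition particle. Srp68 stood at 36.0 and 30.9 CPM in brain, 116 and 106 CPM in control fat body and 91.8 and 106 CPM with 4-HT, and its log2 fold change was -1.73 (SE 0.19, edgeR adjusted p = 2.28e-04). For Srp72 the levels were 25.0 and 21.97 CPM in brain, 70.1 and 68.7 CPM in control fat body and 59.7 and 67.3 CPM with 4-HT, with a log2 fold change of -1.57 (SE 0.17, edgeR adjusted p = 2.13e-04). The brain libraries were below the fat body libraries for both. SrpRbeta (FBgn0011509), the membrane anchor of the particle's receptor, was found at 10.8 and 9.24 CPM in brain, 38.9 and 31.5 CPM in control fat body and 29.0 and 35.7 CPM with 4-HT, a log2 fold change of -1.81 (SE 0.20, edgeR adjusted p = 2.36e-04). Srp54k, the gene of the particle's own subunit of that name, was lower as well (log2 fold change -1.84, edgeR adjusted p = 1.83e-04). The splicing factor gene Srp54 went the other way, at 85.7 and 74.7 CPM in brain, 27.1 and 28.0 CPM in control fat body and 31.6 and 32.6 CPM with 4-HT. Both brain libraries exceeded the 4 fat body libraries (log2 fold change 1.54, SE 0.16, edgeR adjusted p = 1.84e-04).

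All 5 translocation genes were lower in brain (34.5% of all genes tested), and their median log2 fold change was -2.27. Of the 5 values 2 were negative with library size only, where the median of all genes tested was 2.49. The channel is built of 3 proteins. Sec61alpha (FBgn0086357), which forms the pore, stood at 143 and 126.5 CPM in brain, 717 and 583 CPM in control fat body and 809.9 and 619.8 CPM with 4-HT. Sec61beta (FBgn0010638) stood at 58.5 and 48.9 CPM in brain, 269 and 204 CPM in control fat body and 251 and 198 CPM with 4-HT. The remaining subunit gene, Sec61gamma (FBgn0031049), was counted at 36.9 and 29.3 CPM in brain, 216 and 143 CPM in control fat body and 182 and 181 CPM with 4-HT. Their log2 fold changes were -2.27, -2.14 and -2.44 (SE 0.24, 0.24 and 0.26; edgeR adjusted p = 1.97e-04, 2.92e-04 and 2.33e-04), and their 95% intervals overlapped.

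TRAM (FBgn0040340), a membrane protein beside the channel that helps some signal sequences to enter, differed most between the tissues of the 32 genes. It stood at 29.3 and 26.0 CPM in brain, 408 and 352 CPM in control fat body and 263 and 272 CPM with 4-HT. That was a 13.7-fold lower level in brain than in control fat body (log2 fold change -3.78, SE 0.21, edgeR adjusted p = 1.30e-05), and the groups were far apart. Sec63 (FBgn0035771), a J-domain protein that recruits the chaperone BiP to the channel, was measured at 57.2 and 52.5 CPM in brain, 192 and 186 CPM in control fat body and 171 and 189 CPM with 4-HT (log2 fold change -1.79, SE 0.18, edgeR adjusted p = 1.60e-04). An antisense RNA gene covers 60.7% of its exon length in the BDGP6 annotation, and the library kit does not mark strand.

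All 7 folding genes were lower in brain (34.5% of all genes tested), and their median log2 fold change was -1.91. Of the 7 values 1 was negative with library size only, where the median of all genes tested was 2.49. Per kilobase of exon length, Calr, Hsc70-3 and ERp60 were the 3 highest of the 32 genes in every library. In control fat body Calr stood at 1123 and 953 CPM per kilobase, Hsc70-3 at 920.1 and 821, and ERp60 at 552 and 447. In brain the order was Calr (263 and 213), ERp60 (162 and 139) and Hsc70-3 (125 and 100.3). Hsc70-3 (FBgn0001218) encodes BiP, the Hsp70 chaperone of the ER lumen and the classic readout of ER stress. It stood at 449.7 and 360.1 CPM in brain, 3302 and 2948 CPM in control fat body and 3724 and 3355 CPM with 4-HT. The brain libraries were thus far below every fat body library (log2 fold change -2.95, SE 0.23, edgeR adjusted p = 5.90e-05). Gp93 (FBgn0039562), the ER member of the Hsp90 family, stood at 278 and 249 CPM in brain, 1135 and 847 CPM in control fat body and 945 and 1051 CPM with 4-HT. Its difference was smaller, with a log2 fold change of -1.91 (SE 0.23, edgeR adjusted p = 3.75e-04).

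The lectin chaperones Calr and Cnx99A hold newly made glycoproteins, calreticulin in the lumen and calnexin in the membrane. Calr (FBgn0005585) stood at 441 and 357 CPM in brain, 1883 and 1598 CPM in control fat body and 1495 and 1599 CPM with 4-HT, and was lower in brain (log2 fold change -2.12, SE 0.22, edgeR adjusted p = 2.00e-04). Cnx99A (FBgn0015622) stood at 138 and 121 CPM in brain, 257 and 219 CPM in control fat body and 287 and 266 CPM with 4-HT. It was also lower in brain, but by 1.84-fold (log2 fold change -0.88, SE 0.19, edgeR adjusted p = 0.00578). This call was lost without brain replicate 2, where the log2 fold change was -0.73. Its log2 fold change turned to 0.37 with a library size that leaves out the 5 most abundant genes of any library. With library size only Cnx99A was called higher in brain (log2 fold change 1.499, edgeR adjusted p = 2.93e-04). Its adjusted p of 9.14e-05 to 0.1095 over the alternative settings thus covers values of both directions.

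Disulfide bonds are made by isomerases of the PDI family and the oxidase that recharges them. ERp60 (FBgn0033663), an isomerase, stood at 293 and 251 CPM in brain, 998 and 808 CPM in control fat body and 935 and 924 CPM with 4-HT (log2 fold change -1.73, SE 0.21, edgeR adjusted p = 4.07e-04). CaBP1 (FBgn0025678), another member of that family, had levels of 87.4 and 74.2 CPM in brain, 254 and 169 CPM in control fat body and 185 and 219 CPM with 4-HT (log2 fold change -1.39, SE 0.26, edgeR adjusted p = 0.00278). Control replicate 1 was well above control replicate 2 for CaBP1, yet the brain libraries were below both. The oxidase gene Ero1L (FBgn0261274) was expressed at 8.93 and 10.3 CPM in brain, 42.0 and 52.9 CPM in control fat body and 53.7 and 46.8 CPM with 4-HT. Its brain level was about that of the median gene (0.927 and 1.11 times), and its log2 fold change was -2.30 (SE 0.19, edgeR adjusted p = 7.31e-05).

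The 5 genes of ER-associated degradation were lower in brain (34.5% of all genes tested), and their median log2 fold change was -2.21. With library size only, where the median of all genes tested was 2.49, 2 of the 5 values were negative. The ubiquitin ligase gene sip3 (FBgn0039875), the fly Hrd1, stood at 22.8 and 23.3 CPM in brain, 125 and 125 CPM in control fat body and 134 and 105 CPM with 4-HT. Hrd3 (FBgn0028475), its partner that receives substrates, stood at 26.2 and 26.3 CPM in brain, 67.1 and 64.7 CPM in control fat body and 65.7 and 71.1 CPM with 4-HT. Both were lower in brain without overlap, sip3 with a log2 fold change of -2.44 (SE 0.20, edgeR adjusted p = 6.19e-05) and Hrd3 with -1.33 (SE 0.15, edgeR adjusted p = 3.14e-04). Herp (FBgn0031950), a membrane protein of the same complex, was at 13.8 and 14.9 CPM in brain, 101 and 89.1 CPM in control fat body and 87.6 and 118 CPM with 4-HT, a log2 fold change of -2.73 (SE 0.22, edgeR adjusted p = 5.74e-05).

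Edem1 and Edem2 encode mannosidase-like proteins that pick out misfolded glycoproteins. Edem1 (FBgn0023511) stood at 28.7 and 25.6 CPM in brain, 50.2 and 49.2 CPM in control fat body and 52.1 and 45.4 CPM with 4-HT. It had, with Cnx99A, the smallest difference among the genes called lower (log2 fold change -0.87, SE 0.16, edgeR adjusted p = 0.00268). The value turned to 0.38 with the 5 most abundant genes of any library left out of the library size. With library size only Edem1 was called higher in brain (log2 fold change 1.51, edgeR adjusted p = 8.76e-05). Edem2 (FBgn0032480) stood at 28.5 and 27.7 CPM in brain, 126 and 133 CPM in control fat body and 136 and 114 CPM with 4-HT, with a log2 fold change of -2.21 (SE 0.18, edgeR adjusted p = 7.00e-05).

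The 6 genes of export by COPII were lower in brain (34.5% of all genes tested), and their median log2 fold change was -1.71. Of the 6 values 2 were negative with library size only, where the median of all genes tested was 2.49. Sar1 (FBgn0038947), the GTPase that starts coat assembly, stood at 89.2 and 69.3 CPM in brain, 244 and 194 CPM in control fat body and 186 and 220.2 CPM with 4-HT (log2 fold change -1.47, SE 0.23, edgeR adjusted p = 0.00131). Sec16 (FBgn0052654), the scaffold of ER exit sites, was present at 92.9 and 106 CPM in brain, 272 and 352 CPM in control fat body and 354 and 241 CPM with 4-HT. Its 4-HT replicates lay on both sides of its controls, but the brain libraries were below all of them (log2 fold change -1.65, SE 0.26, edgeR adjusted p = 0.00147). Sec24AB (FBgn0033460), the subunit of the inner coat that binds cargo, stood at 53.6 and 60.1 CPM in brain, 172 and 215 CPM in control fat body and 242 and 154 CPM with 4-HT (log2 fold change -1.77, SE 0.27, edgeR adjusted p = 0.00123).

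The outer coat is a cage of Sec13 and Sec31. Sec13 (FBgn0024509) stood at 39.8 and 32.2 CPM in brain, 129 and 94.8 CPM in control fat body and 88.4 and 93.6 CPM with 4-HT, a log2 fold change of -1.64 (SE 0.22, edgeR adjusted p = 6.86e-04). Sec31 (FBgn0033339) stood at 94.9 and 118 CPM in brain, 555 and 648 CPM in control fat body and 534 and 525 CPM with 4-HT, a log2 fold change of -2.50 (SE 0.21, edgeR adjusted p = 8.09e-05). The tissues did not overlap in either gene. Sec22 (FBgn0260855), a SNARE that serves fusion of these vesicles with the next compartment, was measured at 21.9 and 19.8 CPM in brain, 144 and 119.6 CPM in control fat body and 141 and 171 CPM with 4-HT. With a log2 fold change of -2.66 (SE 0.21, edgeR adjusted p = 5.62e-05) it differed most of the 6 export genes.

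The size and the direction of these tissue differences rest on the scaling. With library size as the only scaling, all genes tested had a median of 2.49 on the log2 scale and the 32 genes one of 0.40. In that scaling 15 of the 32 were called higher in brain (75.5% of all genes tested) and 3 lower (11.8%), namely TRAM (-1.40), CrebA (-1.09) and Hsc70-3 (-0.57). Another library size left out every gene that was among the 5 most abundant of any library. With it, 2 of the 32 were called higher (58.9% of all genes tested) and 20 lower (18.2%). A change of scaling moves every gene by nearly the same amount, so the distance of the group's median from the median of all genes, -2.09 with TMM, is kept by construction and does not test it. With libraries scaled to the same median gene, 30 of the 32 were lower in brain (38.3% of all genes tested) with a median log2 fold change of -2.20. In the authors' deposited table of this comparison, 30 of the 32 were lower in brain at an adjusted p under 0.05 and 1 was higher. Of the 13397 genes with an adjusted p there, 19.3% were lower and 20.5% higher. The median log2 fold change of the 32 was -1.93 in that table.

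**Figure D2:**
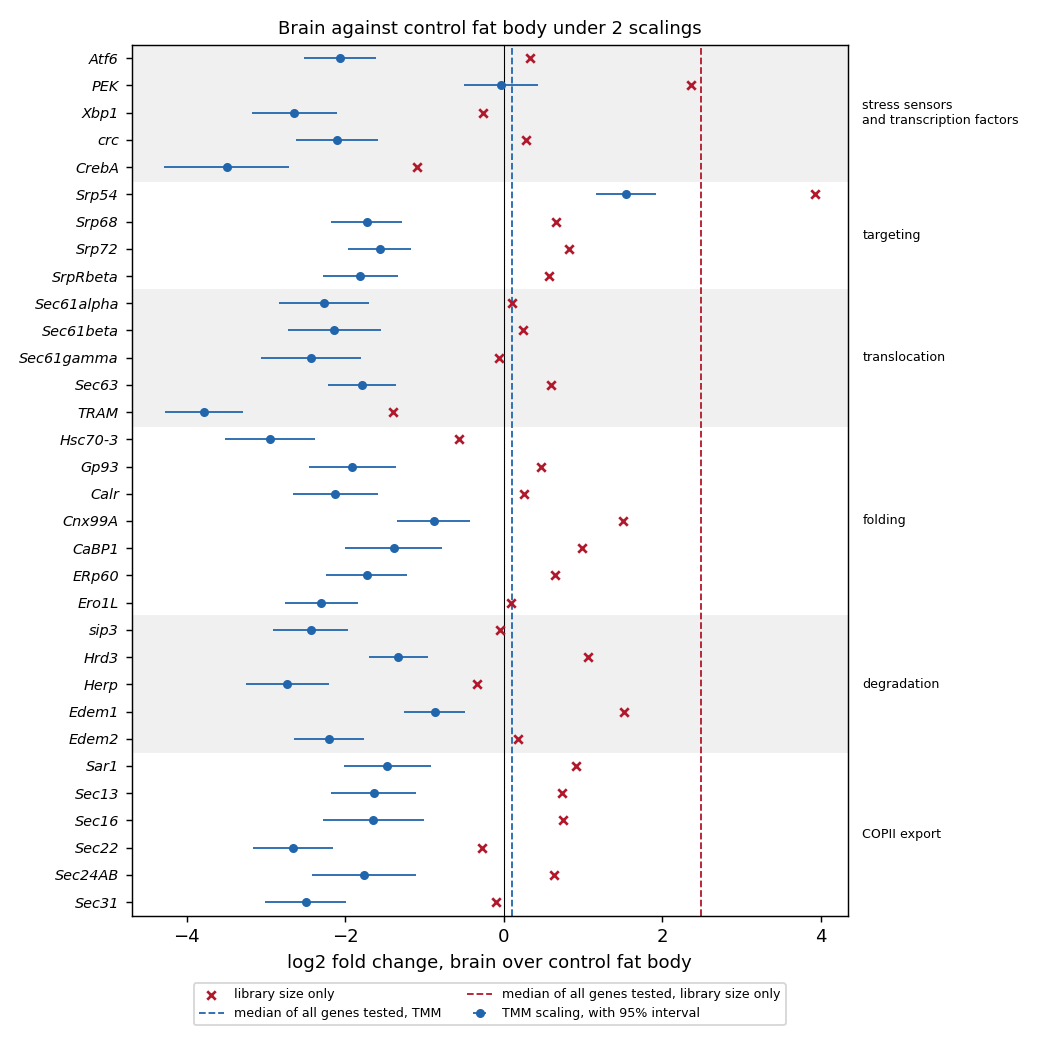
Log2 fold change of each of the 32 genes, brain over control fat body, with TMM scaling (circles, bars for the 95% interval) and with library size only (crosses); dashed lines mark the median of all genes tested in each, 0.11 and 2.49. With TMM 31 genes lie below 0 and with library size only 9 do, while Srp54 is the 1 gene to the right of the median line in both.

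Other genes of the pathway were counted in 9 lists by role, of which 70 were matched to the table and 68 were tested. In brain 54 of the 68 were lower (34.5% of all genes tested), 1 was higher (35.5%) and 13 did not pass (edgeR), and the median log2 fold change was -1.63. Scaled by library size only, 42 were called higher in brain (75.5% of all genes tested) and 5 lower (11.8%), so the directions below are relative to TMM scaling. Spase12, with 0 counts in every library, and ninaA were not tested, and the whole exon length of Spase12 is covered by a gene on the opposite strand in the BDGP6 annotation. All 5 tested genes of the signal recognition particle and its receptor were lower, with the largest difference in SrpRalpha, the receptor's GTPase subunit (log2 fold change -2.10). All 6 tested translocon partners and signal peptidase genes were lower, led by CG5885 (-3.08). All 8 COPI coat genes, which serve return to the ER, were lower, led by gammaCOP (-1.75). In the list of p24 proteins and cargo receptors 7 of 8 were lower, led by the p24 gene loj (-4.04), and in that of SNAREs and tethers 8 of 9, led by Bet1 (-2.44).

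Chaperones, lectins and redox enzymes outside the 32 genes were lower in 12 of 16 cases (34.5% of all genes tested). Fkbp14, a prolyl isomerase of the ER, had the largest difference of the 68, at 16.9 and 15.1 CPM in brain, 638 and 584 CPM in control fat body and 665 and 576 CPM with 4-HT (log2 fold change -5.26). In the list of other ER-associated degradation genes 3 of 7 were lower (34.5% of all genes tested), with a median log2 fold change of -0.25. There Der-2, a derlin of the ER membrane, led with -2.42. Of 4 further stress response regulators 1 was lower (34.5% of all genes tested). It was BI-1 (-1.24), an inhibitor of cell death in the ER membrane. Gcn2, the other eIF2alpha kinase, and PPP1R15, which brings phosphatase to eIF2alpha, did not pass, with log2 fold changes of 0.12 and -0.34 (edgeR adjusted p = 0.455 and 0.0780), and these genes were chosen after their values were seen.

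**Figure D3:**
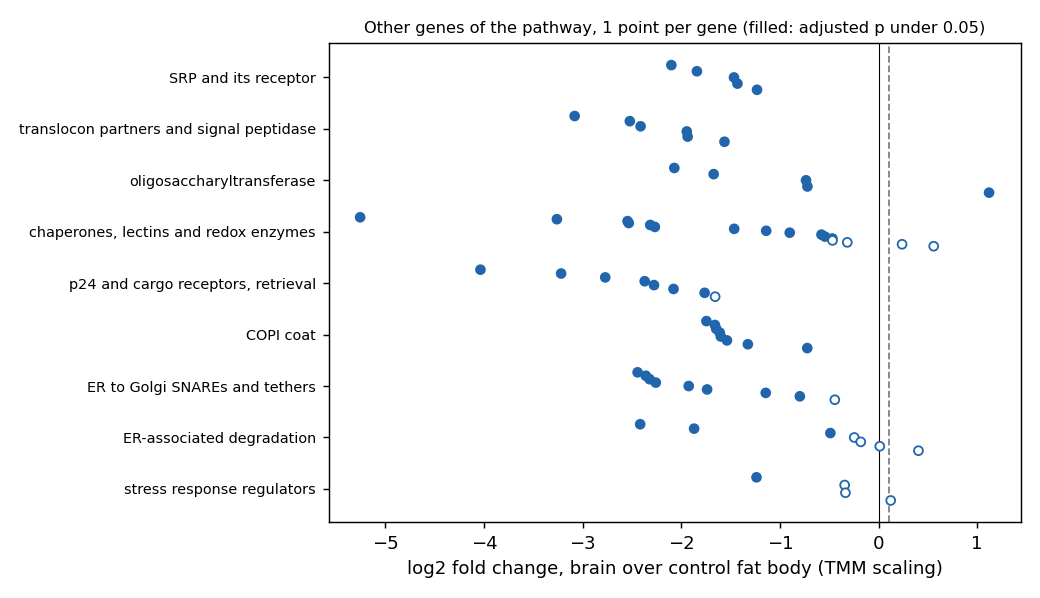
Log2 fold change, brain over control fat body with TMM scaling, of the 68 other pathway genes tested, 1 point a gene in 9 role lists, filled where the edgeR adjusted p was under 0.05; the dashed line is the median of all genes tested, 0.11. The COPI genes lie between -1.75 and -0.72, whereas the chaperone list runs from -5.26 to 0.56; with library size only, 42 of the 68 genes were called higher (75.5% of all genes tested) and 5 lower (11.8%).

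The oligosaccharyltransferase, which attaches sugar chains to nascent proteins, was split. Its catalytic subunit exists in forms encoded by Stt3A and Stt3B, the first of which works beside the Sec61 channel and the second after translocation in mammals. Stt3A was the 1 pathway gene called higher in brain, at 122 and 107 CPM there, 57.3 and 48.2 CPM in control fat body and 36.8 and 32.6 CPM with 4-HT (log2 fold change 1.12, edgeR adjusted p = 0.00161). Stt3B was lower, at 98.0 and 83.7 CPM in brain, 300.0 and 279 CPM in control fat body and 282 and 244 CPM with 4-HT (-1.67, edgeR adjusted p = 3.37e-04). The other 3 tested subunit genes were lower as well (34.5% of all genes tested), led by Ostgamma (-2.07).

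Ratios between genes of a library do not depend on its scaling. The pairs given here were chosen after their values were seen, and with 2 libraries against 2 an exact permutation test cannot go below p = 0.333. They are ratios of counts not corrected for length, which serve to compare libraries and do not say which gene of a pair had the higher level. The ratio of Stt3A to Stt3B counts was 1.25 and 1.28 in brain, 0.191 and 0.173 in control fat body, and 0.131 and 0.134 with 4-HT, and no groups overlapped. The ratio of PEK to Xbp1 was 0.297 and 0.364 in brain against 0.0448 and 0.0644 in control fat body and 0.0558 and 0.0736 with 4-HT. For PEK to Atf6, another sensor, it was 1.62 and 1.39 in brain against 0.360 and 0.374 in control fat body and 0.349 and 0.537 with 4-HT. In both pairs with PEK the brain ratios were above the 4 fat body ratios. No share over all gene pairs was computed. Single genes did not overlap between brain and control fat body for 86.5% of all genes tested.

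Pairs within the folding and degradation machinery also differed by tissue. Calnexin counts (Cnx99A) were 0.312 and 0.338 of calreticulin counts (Calr) in brain, 0.137 in both control libraries, and 0.192 and 0.166 with 4-HT. The ratio of Edem1 to Edem2 was 1.01 and 0.924 in brain, 0.398 and 0.370 in control fat body, and 0.384 and 0.399 with 4-HT. The ratio of Hrd3 to its ligase sip3 was 1.15 and 1.13 in brain, 0.536 and 0.519 in control fat body, and 0.491 and 0.680 with 4-HT. For BiP (Hsc70-3) to Gp93 the ratio of counts was 1.62 and 1.45 in brain, 2.91 and 3.48 in control fat body, and 3.94 and 3.19 with 4-HT. In none of these 4 pairs did the brain libraries overlap the fat body libraries. Here too the share over all gene pairs is not known (86.5% for single genes, brain against control fat body). The ratio of Sec61gamma to Sec61alpha did overlap, at 0.258 and 0.232 in brain and 0.301 and 0.245 in control fat body.

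Subunits of a complex were compared per kilobase of exon length. Within the Sec61 channel the highest subunit was 1.26 to 1.68 times the lowest in the 6 libraries. In control fat body Sec61alpha stood at 337 and 274 CPM per kilobase, Sec61beta at 339 and 257, and Sec61gamma at 270.2 and 179, against 67.2 and 59.5, 73.8 and 61.8, and 46.3 and 36.8 in brain. The subunit levels thus stayed close to each other in both tissues. Their common level was lower in brain with TMM scaling. With library size only, the log2 fold changes of the 3 genes were 0.11, 0.24 and -0.06. The spread was 1.69 to 2.69 for 6 proteins of the signal recognition particle, 1.56 to 1.98 for its receptor and 1.44 to 2.05 for 7 COPI subunits. It was wider for the 5 COPII genes, at 3.48 to 5.14, where Sec31 or Sar1 was highest and Sec16 lowest.

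**Figure D4:**
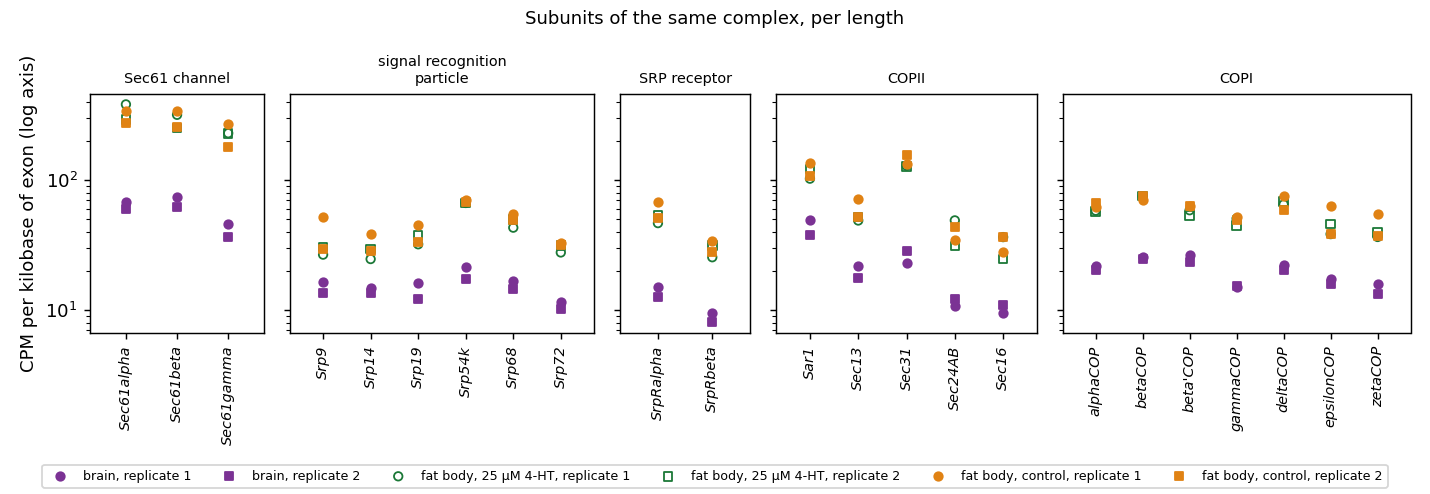
CPM per kilobase of exon length, on a log axis, of the subunits of 5 complexes in each of the 6 libraries. Within the Sec61 channel the points of a library span 1.26 to 1.68 times and within COPII 3.48 to 5.14 times, and with TMM scaling the brain points lie below the fat body points of the same gene in every complex.

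The second comparison set fat body with 4-HT in the food against the same control fat body libraries. No gene of the group was called in either direction, against 0% of all genes tested (edgeR adjusted p under 0.05). At an unadjusted p under 0.05 there was 1, against 5.94% of all genes tested. DESeq2 called 0 of the 32, and 44 (0.324%) of the 13574 genes with any count. The median log2 fold change of the group was -0.07 and that of all genes tested was 0.01. In the authors' deposited table of this comparison 0 of the 32 passed and the smallest adjusted p among them was 1. Of the 13109 genes with an adjusted p in that table, 3 (0.0229%) were called lower.

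TRAM had the largest difference with 4-HT, from 408 and 352 CPM in control to 263 and 272 CPM with the drug, a log2 fold change of -0.51 (95% interval -0.95 to -0.06, edgeR adjusted p = 0.835). Its groups did not overlap, but it did not pass over all genes. Without control replicate 1, the library with salivary gland transcripts, its log2 fold change was -0.40. BiP, the readout of ER stress, stood at 3302 and 2948 CPM in control and at 3724 and 3355 CPM with 4-HT, a log2 fold change of 0.18 (95% interval -0.34 to 0.70, edgeR adjusted p = 0.973). Both drug libraries were above both controls for BiP, but the interval included 0. Xbp1 (-0.11), Atf6 (-0.08), PEK (0.16) and crc (-0.16) had intervals that included 0 as well. Over the 32 genes the log2 fold changes ran from -0.51 to 0.24 (Sec22), and the interval bounds from -0.95 (TRAM) to 0.72 (Sec22). The drug libraries were above both controls in 3 genes and below both in 5, and overlapped them in 24. That is 8 of 32 on one side, against 30% of all genes tested.

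**Figure D5:**
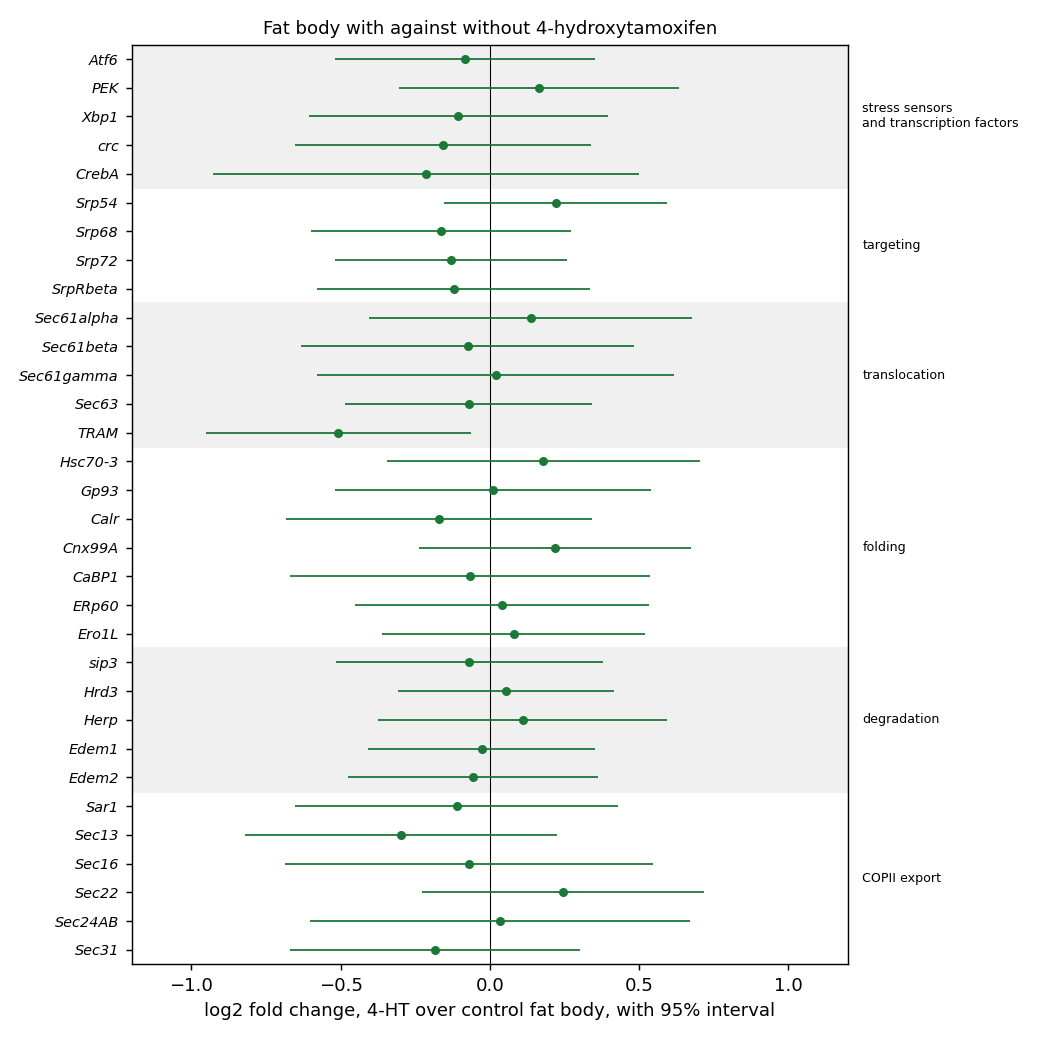
Log2 fold change of each of the 32 genes in fat body, 4-HT over control, with its 95% interval. All intervals cross 0 except that of TRAM, at -0.95 to -0.06, and the values run from -0.51 to 0.24.

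Of the 68 other pathway genes 0 were called with 4-HT (edgeR; 0% of all genes tested), and 1 had an unadjusted p under 0.05 (5.94%). It was Stt3A, with a log2 fold change of -0.60 (edgeR adjusted p = 0.835).

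Replicates of a group differed in ways that followed gene length. Between the control replicates the median log2 ratio of replicate 1 to replicate 2 was 0.26 over genes with under 1000 bases of exon and -0.25 over genes with more than 4000 bases. Over the 32 genes this ratio correlated with length at a Spearman rho of -0.76, as a description across genes of shared libraries, with -0.60 for the brain and 0.38 for the 4-HT replicates. Among the 32 it ran from -0.83 for CrebA to 0.59 for Sec61gamma in the controls. The tissue difference itself had a rho of 0.08 with length over the 32 genes and of 0.23 over all genes with a length, where its median was -0.53 for genes under 1000 bases and 0.90 for genes over 4000 bases.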

How the data were processed

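The data were 6 RNA-seq libraries of 3 groups with 2 replicates each, grouped by their titles. The count of reads per gene was deposited as a whole number without scaling. Per the file headers, the authors' comparison tables hold a signal (the mean of scaled counts in a group), a ratio of group means, its log2 value, and a p-value before and after adjustment. TopHat, HTSeq, DESeq and the build dm3 are named, without versions, per the submitters' processing notes. The sources used here give neither the annotation release nor the strand setting.

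Members and lists were chosen with earlier results of these data known. Identifiers were matched to symbols through the BDGP6 gene annotation (Ensembl release), which gave exon lengths and overlaps as well. It is not the authors' annotation, and no coordinates are printed. All 37 listed genes are named. From each list of other pathway genes the called gene with the largest difference in each direction was taken, while Srp54k, Stt3B, Gcn2, PPP1R15 and the ratio pairs were chosen after their values were seen.

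Genes were kept by filterByExpr (10029 left). After TMM scaling, edgeR 4.0.16 (estimateDisp, robust glmQLFit, glmQLFTest; R 4.3.3) was fitted over all 6 libraries, with 3 residual degrees of freedom. A call is an adjusted p under 0.05, with the Benjamini-Hochberg method over every gene that passed the filter. Standard errors are the log2 fold change over the square root of F, and 95% intervals use the moderated t distribution. Total counts of 20687696 to 65802288 a library make the counting error small beside the difference between replicates (every secretory gene had at least 360 counts). The p-values measure the spread between pools of larvae. DESeq2 1.42.0 and 15 other alternative settings were run. Replicate numbers were not used as pairs in the main fit. The correlation of deviations from the group mean was 0.19, -0.14 and -0.09 for the 3 pairs of groups. With 2 libraries a group this cannot show whether libraries of the same number shared a batch. Salivary gland markers were higher in replicate 1 than in replicate 2 of both brain and control fat body.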

Additional observations from a re-analysis of the deposited data

How the results depend on the processing

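Limits: each group has 2 libraries, 3 residual degrees of freedom carry the tests, the tissue directions rest on the scaling, and a library left out leaves a lone sample, whose spread is taken to be that of the other groups. The cause of the shifts between tissue scalings was not tested beyond the share of the most abundant genes. Under the other 14 settings 29 or 30 of the 32 secretory genes were lower and 1 higher in brain, and under the 16 settings run 0 were called with 4-HT.

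With library size only, 15 of the 32 genes were higher and 3 lower in brain (75.5% and 11.8% of all genes tested), and 42 and 5 of the other pathway genes. The log2 fold changes that turned positive were Atf6 0.33, PEK 2.36, crc 0.28, Srp68 0.65, Srp72 0.82, SrpRbeta 0.57, Sec61alpha 0.11, Sec61beta 0.24, Sec63 0.60, Gp93 0.47, Calr 0.25, Cnx99A 1.499, CaBP1 0.99, ERp60 0.65, Ero1L 0.094, Hrd3 1.06, Edem1 1.51, Edem2 0.18, Sar1 0.91, Sec13 0.74, Sec16 0.75 and Sec24AB 0.63. With a library size without the 5 most abundant genes of any library, 2 of the 32 were higher and 20 lower (58.9% and 18.2% of all genes tested). Of the other pathway genes, 19 and 28 were higher and lower. There PEK (1.22), Cnx99A (0.37) and Edem1 (0.38) turned positive.

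Other pathway genes higher in brain numbered 4 with upper quartile scaling and 2 with the factors of DESeq2 in edgeR, with no filter on low counts, with DESeq2 and with only the 2 groups compared, and 1 to 2 with a library left out. The distance of the group's median from that of all genes in brain was -1.85 with no filter, -2.14 with a CPM of at least 1 in 2 libraries, -1.75 with DESeq2, -2.14 with only the 2 groups compared, and -2.11 to -1.83 with a library left out. With 4-HT it was -0.081 in the fit and -0.0772 to -0.0157 with a library left out. With the replicate number as a block in the model, 30 of the 32 genes were lower and 1 higher in brain, and 52 and 1 of the other pathway genes. The replicate block changed no other call among the 32. Cnx99A lost its call without brain replicate 2.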
